A study of Mus musculus with 24 samples.

Results

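The stress and immediate early genes described here are 10 genes taken by name, of 35868 genes in the tables: Fos, Fosb, Jun, Junb, Egr1, Atf3, Dusp1, Nr4a1, Hspa1a and Hspa1b. All 10 were found, and Hspa1a and Hspa1b were added together because their sequences are nearly the same, which leaves 9 measured features. They were read in 24 RNA sequencing libraries from mouse spleens that the labels name as T cells, 3 in each of 8 groups. The groups cross cell type (CD8+ or CD4+), donor genotype (Cat-Tg or WT) and time (pre-tx or post-tx). The WT pre-tx libraries among them held mixed Cd4 and Cd8a and strong B cell markers, as given below. Cat-Tg mice are heterozygous for an N-terminally truncated human β-catenin, which the p1017 vector (proximal Lck promoter, active in the T lineage) drives; founders were FVB mice bred to C57BL/6, the strain of the WT donors, and donors were matched for sex and age at 8 to 12 weeks. Pre-tx cells came fresh from donor spleens. Post-tx cells came, at day 7, from spleens of lethally irradiated BALB/c recipients that had received WT bone marrow depleted of T cells together with a 1:1 mix of donor CD4+ and CD8+ cells, and were sorted by the donor's H-2Kb, a marker that cells grown from the donor marrow also carry. All cells were sorted into Trizol, and the WT libraries also served other publications of the group.

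Immediate early genes are transcribed within minutes of a signal, from factors that are already in the cell, and their mRNAs are short-lived. In T cells they follow antigen receptor signals through MAP kinases and calcium, and they are also known to appear when cells are taken out of tissue, warmed or sorted. Fos, Fosb, Jun, Junb and Atf3 encode subunits of AP-1 and related leucine zipper dimers, Egr1 a zinc finger factor, Nr4a1 (Nur77) an orphan nuclear receptor used as a reporter of T cell receptor signals, and Dusp1 a phosphatase that switches MAP kinases off. Hspa1a and Hspa1b encode the inducible chaperone HSP70, which heat shock factor 1 turns on when proteins unfold.

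The annotation used (GENCODE M21, GRCm38) places Fos at chr12:85473890-85477273, Fosb at chr7:19302696-19310051, Jun at chr4:95049034-95052222, Junb at chr8:84974484-84978718, Atf3 at chr1:191170296-191218039, Dusp1 at chr17:26505590-26562128 and Nr4a1 at chr15:101254269-101274795. Hspa1a (chr17:34969190-34972156) and Hspa1b (chr17:34956436-34959238) lie on the same strand of the same chromosome, and each is a single exon, as is Jun. Of the 31-base stretches of the Hspa1a transcript, 63.8% were also in Hspa1b, and 88.4% within the coding part, so that reads from either could be assigned to the other. In the WT CD8+ pre-tx libraries, for instance, Hspa1a alone read 3.94, 19.7 and 25.1 CPM (counts scaled to a common library size) and Hspa1b alone 20.1, 45.8 and 17.3, and only their sum is used below.

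The promoters of 7 members that were called in 1 or more comparisons are shown as the 150 bases before the start of transcription in the RefSeq annotation (GRCm38.p6) to give the letters of motifs known from genes of this kind. Capitals mark the CRE core TGACG, which CREB and ATF proteins bind, the full CRE TGACGTCA, which contains that core on both strands, the heat shock element pair GAANNTTC, and the TATA box TATAAA; each was searched on both strands.
Fos, chr12:85473740-85473889, plus strand: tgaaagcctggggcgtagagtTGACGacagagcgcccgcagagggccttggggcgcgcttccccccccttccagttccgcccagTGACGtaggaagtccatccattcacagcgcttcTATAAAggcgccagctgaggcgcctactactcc
Jun, chr4:95052223-95052372, minus strand: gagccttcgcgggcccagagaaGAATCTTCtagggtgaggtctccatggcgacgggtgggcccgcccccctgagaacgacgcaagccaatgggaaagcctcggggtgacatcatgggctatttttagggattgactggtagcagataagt
Atf3, chr1:191183334-191183483, minus strand: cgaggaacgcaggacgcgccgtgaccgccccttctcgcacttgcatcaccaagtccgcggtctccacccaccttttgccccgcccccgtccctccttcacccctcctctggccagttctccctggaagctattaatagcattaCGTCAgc
Dusp1, chr17:26508473-26508622, minus strand: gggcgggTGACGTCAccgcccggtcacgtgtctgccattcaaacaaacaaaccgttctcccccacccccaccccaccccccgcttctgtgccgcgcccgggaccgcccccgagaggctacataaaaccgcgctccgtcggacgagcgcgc
Nr4a1, chr15:101266696-101266845, plus strand: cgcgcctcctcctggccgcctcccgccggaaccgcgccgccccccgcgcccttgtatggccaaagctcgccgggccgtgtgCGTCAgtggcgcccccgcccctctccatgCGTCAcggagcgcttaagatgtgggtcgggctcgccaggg
Hspa1a, chr17:34972157-34972306, minus strand: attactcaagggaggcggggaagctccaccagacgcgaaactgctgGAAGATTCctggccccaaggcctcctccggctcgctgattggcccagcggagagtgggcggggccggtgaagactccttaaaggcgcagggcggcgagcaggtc
Hspa1b, chr17:34959239-34959388, minus strand: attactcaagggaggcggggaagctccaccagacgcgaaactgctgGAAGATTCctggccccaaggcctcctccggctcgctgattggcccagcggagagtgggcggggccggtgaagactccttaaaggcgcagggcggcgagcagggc

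Over 250 bases before the start, 247 were identical between Hspa1a and Hspa1b, and both held the heat shock element at -104, counted from -1 at the base before the start. Jun held the same letters at -128, and 6.69% of 32851 promoters of this length hold them. The CRE core was in 6 of the 9 promoters read, those of Fos, Fosb, Junb, Atf3, Dusp1 and Nr4a1, against 17.8% of all promoters; Nr4a1 held it 4 times (-233, -213, -69 and -40) and Fos at -129 and -66. The full CRE was in Dusp1 alone, at -143 (1.55% of all promoters), and TATAAA in Fos alone, at -33 (12.4%). The AP-1 element TGANTCA (6.75% of all promoters) and the CArG box that serum response factor binds (1.47%) were in none of the 9 within these 250 bases. Bases further upstream were not searched, so elements there would not be seen. Egr1 is not among the promoters read. A match of letters is a description of the window and says nothing on binding in these cells.

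Total estimated counts ranged from 11135713 to 50519825 per library, and 3 counts, taken as the floor, correspond to 0.0594 to 0.269 CPM. Levels are CPM after TMM scaling, with the SD of 3 libraries. The labels were checked against Cd4 and Cd8a, and the WT pre-tx libraries did not carry their label: Cd8a made up 50% to 65.4% of the summed Cd4 and Cd8a CPM in all 6 of them, whether labelled CD8 or CD4, against 99.0% to 99.9% in the other CD8+ and 0.0895% to 3.39% in the other CD4+ libraries. Their 17 B cell markers summed to 27100 to 45900 CPM, against 639 to 6100 in the other 18 libraries, and their 12 T cell markers to 1930 to 3460 CPM, against 4920 to 20000. The 15 myeloid markers were highest in the Cat-Tg CD4+ post-tx libraries, at 6550 to 8600 CPM against 1430 to 2110 in WT CD4+ post-tx. No marker of these 3 lists was at 0 throughout a group. Every Cat-Tg library carries one prefix in its description and every WT library another, so that library series and genotype cannot be told apart, and in bulk RNA fewer cells of a type and less RNA per cell cannot be told apart either. The transgene is human, so mouse Ctnnb1, at 10.1 to 168 CPM over all libraries, does not check it. Below, "labelled" stands for these WT pre-tx libraries, and each comparison that rests on them has no version without them.

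**Figure D1:**
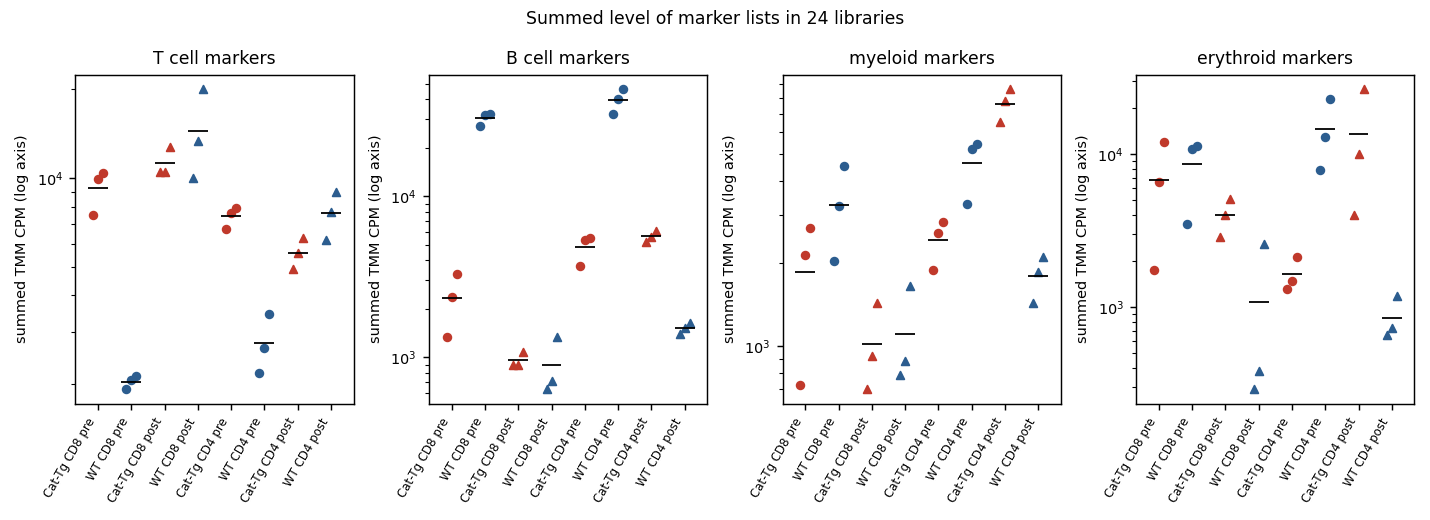
Summed TMM CPM (log axis) of marker genes of T cells, B cells, myeloid cells and erythroid cells in each of 24 libraries, by group; circles are pre-tx, triangles post-tx, red Cat-Tg, blue WT, and bars are group means. The 6 libraries labelled WT pre-tx stand apart with 27100 to 45900 CPM of B cell markers, and the Cat-Tg CD4+ post-tx libraries have the highest myeloid sums, 6550 to 8600 CPM.

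The members differed widely in level and in how far they ranged. On the TPM scale, which accounts for length, Junb was the most abundant member in every group, with group means from 53.5 to 183 TPM. Dusp1 followed with 7.10 to 63.1 TPM, Nr4a1 with 1.32 to 51.6, Jun with 0.867 to 46.2, Fos with 0.405 to 34.4 and Egr1 with 1.80 to 25.3. The summed Hspa1a and Hspa1b ran from 0.0439 to 22.6 TPM, Atf3 from 0.119 to 12.8, and Fosb did not exceed a mean of 1.01 TPM. The group labelled WT CD8+ pre-tx had the highest mean CPM for 6 of the 9 features (Fos, Fosb, Jun, Dusp1, Nr4a1 and the Hspa1 pair), Cat-Tg CD4+ post-tx for Junb and Atf3, and WT CD4+ post-tx for Egr1; Cat-Tg CD8+ pre-tx had the lowest mean for 6. The group with the highest mean was the same in CPM and in TPM for all 9. When the 8 group means of each member were put in order, 52 of the 63 pairs of neighbours overlapped in their ranges, so most steps in these orders are within the spread of the libraries.

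**Figure D2:**
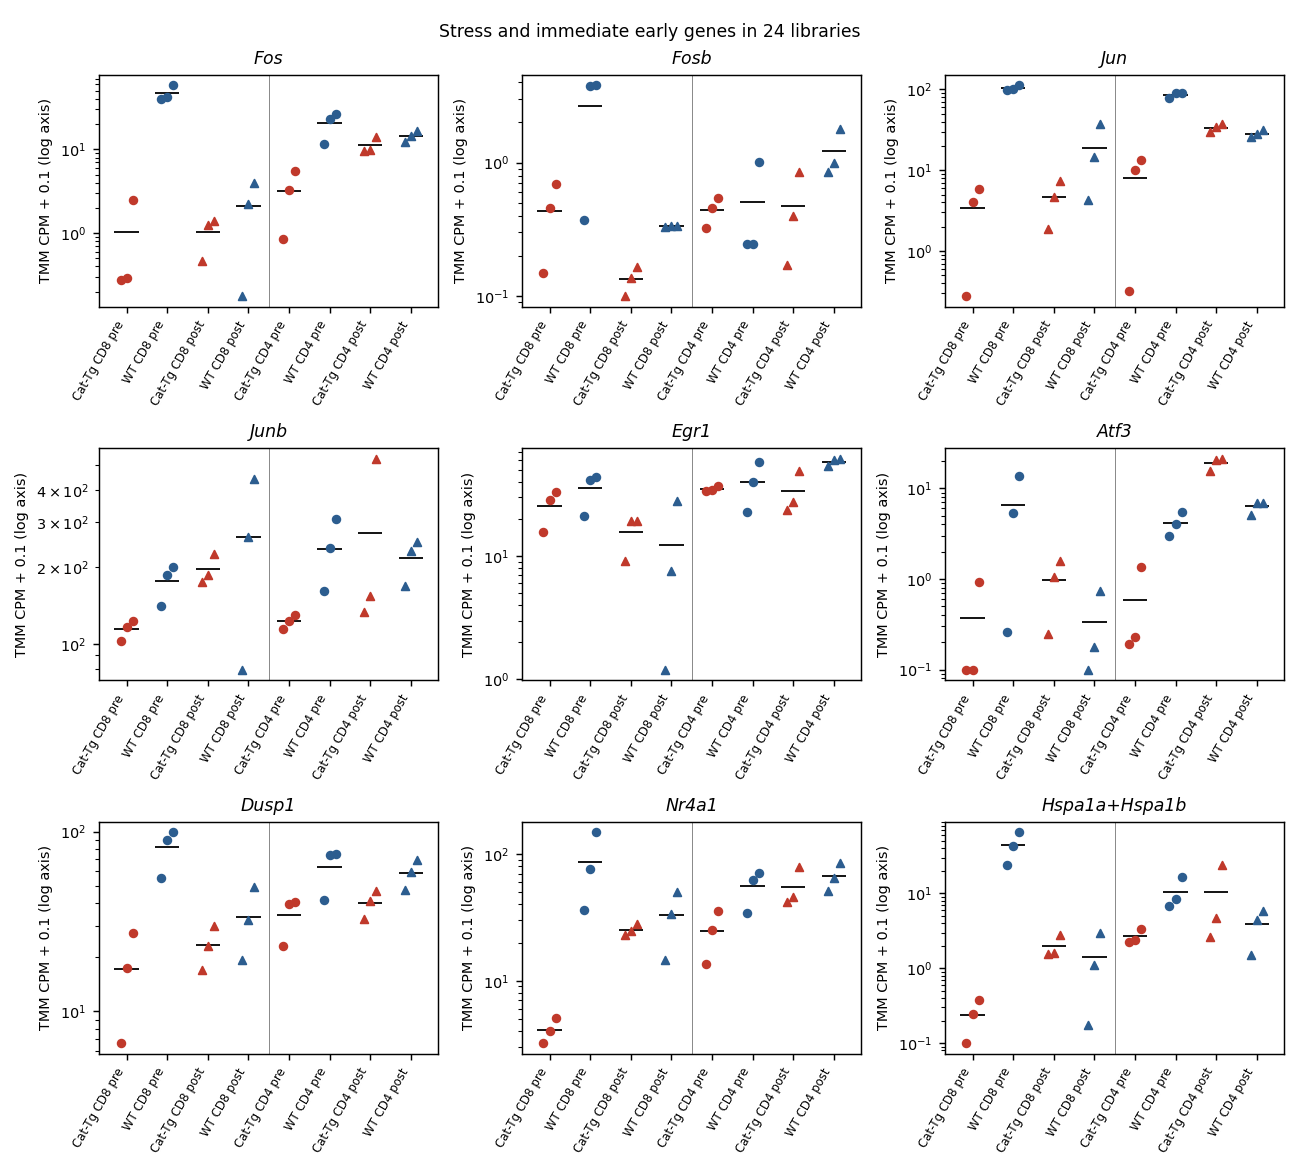
TMM CPM plus 0.1 (log axis) of each member in 24 libraries, by group; points are libraries, bars group means, circles pre-tx, triangles post-tx, red Cat-Tg and blue WT. Fos, Jun and the sum of Hspa1a and Hspa1b stand highest in the libraries labelled WT CD8 pre, Nr4a1 is lowest in Cat-Tg CD8 pre (3.11 to 4.97 CPM), and Atf3 is highest in Cat-Tg CD4 post (15.3 to 21.2 CPM).

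Fos, which binds DNA as a dimer with Jun proteins, stayed under 4 CPM in CD8+ cells outside the libraries labelled WT pre-tx. It read 0.193, 2.42 and 0.177 CPM in the Cat-Tg CD8+ pre-tx libraries, 1.28, 1.16 and 0.370 in Cat-Tg post-tx and 2.12, 0.0768 and 3.83 in WT post-tx, the lowest of which is a single count. It read, in the WT CD8+ pre-tx group, 58.6, 39.5 and 41.7 CPM. That group did not overlap any of the others, and in its order of means only 1 further step, from Cat-Tg CD4+ post-tx (13.8, 9.73 and 9.60 CPM) down to Cat-Tg CD4+ pre-tx (5.45, 0.746 and 3.19), was free of overlap. WT CD4+ cells read 12.1, 14.3 and 16.6 CPM post-tx, and 23.3, 26.1 and 11.6 in the libraries labelled pre-tx.

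Jun, which pairs with Fos or with itself, had a like order. The libraries labelled WT pre-tx read 98.1, 113 and 101 CPM for CD8 and 90.0, 90.5 and 78.3 for CD4, above every other library. In CD4+ post-tx cells Jun read 36.7, 33.9 and 29.6 CPM for Cat-Tg and 31, 28.1 and 25.6 for WT, 2 sets that overlap. The Cat-Tg pre-tx libraries were low and uneven, with 4.0, 5.72 and 0.177 CPM in CD8+ and 10, 0.219 and 13.2 CPM in CD4+ cells. Post-tx CD8+ cells read 1.79, 7.34 and 4.63 CPM for Cat-Tg and 4.16, 37.5 and 14.6 for WT.

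Junb, the AP-1 subunit with the steadiest expression here, ranged 2.41-fold between its lowest and highest group mean, from 113 ± 10.8 CPM (SD, n = 3) in Cat-Tg CD8+ pre-tx to 272 ± 224 CPM in Cat-Tg CD4+ post-tx. The second of these means rests on 1 library: Cat-Tg CD4+ post-tx replicate 1, the shallowest of the series, read 531 CPM, and the others 133 and 154. Fosb, a relative of Fos, never exceeded 3.71 CPM; all Cat-Tg CD8+ post-tx libraries were at or under the floor of 3 counts, and Fosb passed the filter on low counts in the fit of all 24 libraries alone.

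Atf3, an ATF/CREB family factor of stress responses, was at most 1.5 CPM in CD8+ cells outside the libraries labelled WT pre-tx and highest in Cat-Tg CD4+ post-tx cells. It read 15.3, 21.2 and 20.5 CPM in Cat-Tg CD4+ post-tx libraries and 4.99, 6.81 and 6.84 in WT CD4+ post-tx, which do not overlap. The Cat-Tg CD4+ pre-tx libraries read 0.0903, 0.132 and 1.26 CPM. In CD8+ cells the Cat-Tg libraries read 0.820, 0 and 0 CPM pre-tx and 0.957, 1.5 and 0.148 post-tx, and the WT-labelled CD8+ pre-tx libraries were scattered, at 0.163, 5.26 and 13.7.

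Egr1, the zinc finger factor, had pre-tx group means of 25.5 to 40.0 CPM and was highest in WT CD4+ post-tx libraries, at 53.2, 61.5 and 59.8 CPM, above the 48.9, 27.5 and 23.4 CPM of Cat-Tg CD4+ post-tx. It was lowest post-tx in CD8+ cells, at 8.97, 19.0 and 19.1 CPM for Cat-Tg and 1.10, 27.6 and 7.53 for WT. Dusp1 was present in every library, from 6.55 CPM in Cat-Tg CD8+ pre-tx to 99.1 in the WT-labelled CD8+ pre-tx libraries (99.1, 55.2 and 90.0 CPM). In Cat-Tg CD8+ cells it read 17.4, 6.55 and 27.2 CPM pre-tx and 16.8, 29.8 and 23.1 post-tx, which overlap.

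Nr4a1 separated the Cat-Tg CD8+ pre-tx libraries from all others. They read 4.97, 3.89 and 3.11 CPM, and the next lowest library of the series was at 13.5. The Cat-Tg CD8+ post-tx libraries were tightly grouped at 22.9, 24.4 and 27.9 CPM, and Cat-Tg CD4+ cells read 25, 13.5 and 35.3 pre-tx and 79.1, 45.5 and 41.4 post-tx. The WT-labelled CD8+ pre-tx libraries spread from 36.2 to 149 CPM, and WT CD8+ post-tx from 14.6 to 50.1.

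The HSP70 genes gave the widest range, 312-fold between group means, although the lower mean is made of at most 7.4 counts in a library. The sum of Hspa1a and Hspa1b read 0.145, 0.278 and 0 CPM in Cat-Tg CD8+ pre-tx libraries and 24.1, 65.5 and 42.4 in the WT-labelled CD8+ pre-tx libraries. Post-tx CD8+ cells read 2.71, 1.46 and 1.48 CPM for Cat-Tg and 1.02, 0.0768 and 2.90 for WT, whose range overlaps that of Cat-Tg CD8+ pre-tx. Cat-Tg CD4+ cells read 2.14, 3.29 and 2.29 CPM pre-tx, and 23.9, 2.49 and 4.55 post-tx, where the first value is again the shallowest library.

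Cat-Tg and WT were compared first, to ask how the transgene goes with these genes before and after transplantation. Pre-tx, none of the members was called higher in Cat-Tg, in CD8+ or CD4+ cells, and 5 and 3 of the 8 tested were called lower, whereas post-tx none was called in either cell type. A call needs an adjusted p of at most 0.05 (edgeR quasi-likelihood test, Benjamini-Hochberg over all genes tested) and an absolute log2 difference of at least 1. The pre-tx differences are between libraries that also differ in cell content. In CD8+, 17 of 17 B cell markers and 9 of 15 myeloid markers were called lower in Cat-Tg and 8 of 12 T cell markers higher. In CD4+, 17 of 17 B cell, 4 of 15 myeloid and 5 of 7 erythroid markers were called lower (erythroid sums of 1300 to 2120 CPM in Cat-Tg against 7780 to 22700 in WT) and 9 of 12 T cell markers higher. The part of this in the members' differences was not tested.

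In CD8+ pre-tx, Fos, Jun, Dusp1, Nr4a1 and the Hspa1 pair were lower in Cat-Tg, 5 of 8 tested members against 4.48% of 15974 genes called lower, 4.49% higher and 8.96% in all. The largest difference was that of the Hspa1 pair, -8.17 on the log2 scale (SE 1.28, adjusted p = 0.00112), a value that depends on the handling of counts near 0. Fos differed by -5.50 (SE 1.23, adjusted p = 0.0115) and Jun by -4.87 (SE 1.03, adjusted p = 0.00804). Both genes were near the floor in at least 1 Cat-Tg library, and without Cat-Tg CD8+ pre-tx replicate 3 the adjusted p of Fos was 0.0533. Nr4a1 was lower by a log2 difference of -4.36 (SE 0.618, adjusted p = 0.000649), called in each fit that left out 1 library, and Dusp1 by -2.18 (SE 0.542, adjusted p = 0.0201), which was not called in 4 of the 6 such fits (adjusted p of 0.0532 to 0.0671). Junb (-0.55, adjusted p = 0.526), Egr1 (-0.39, adjusted p = 0.828) and Atf3 (-4.46, SE 1.91, adjusted p = 0.171) did not pass. Counting ranges, 6 of 8 did not overlap, the called 5 and Junb, against 32.6% of all genes. The median member differed by -4.41, and the median of all genes by -0.07.

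In CD4+ pre-tx, the 3 lower members were Fos (-2.57, SE 0.557, adjusted p = 0.00391), Jun (-3.36, SE 0.746, adjusted p = 0.00493) and Atf3 (-2.93, SE 0.742, adjusted p = 0.0105), against 5.9% of 17242 genes called lower, 12.3% higher and 18.2% in all. For Nr4a1 the difference was -1.07 (adjusted p = 0.0535), for Dusp1 -0.76 (adjusted p = 0.0846), for the Hspa1 pair -1.85 (adjusted p = 0.095), for Junb -0.80 (adjusted p = 0.174) and for Egr1 -0.04 (adjusted p = 0.958). Ranges did not overlap for 6 of 8, against 35.7% of genes. In Cat-Tg CD4+ pre-tx, Atf3 had 3, 3 and 28 counts and Jun 5 in replicate 2, near the floor of 3. The number of calls depended on the fit: DESeq2 gave 5, a fit of the 6 libraries compared gave 6, and without Cat-Tg CD4+ pre-tx replicate 1 or WT CD4+ pre-tx replicate 3 it was 5 (Dusp1 and Nr4a1 added). With DESeq2 size factors, which moved the median of all genes by -0.197, the share of called genes that were higher in Cat-Tg went from 67.6% to 53.1%, and 4 members were lower.

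Post-tx, 0 of 8 members were called in CD8+ cells by edgeR, DESeq2 or limma-voom, none had an unadjusted p under 0.05, and none separated by range, against 1.67% of genes called (1.1% higher, 0.57% lower) and 24.9% without overlap. Nr4a1 differed by -0.21 (SE 0.538, adjusted p = 0.866) and the Hspa1 pair by 0.61 (SE 0.939, adjusted p = 0.752). These SEs leave room for differences of more than 2-fold. In CD4+ cells edgeR also called 0 of 8 (10% of all genes, 3.62% higher and 6.41% lower), with an unadjusted p under 0.05 for Atf3, which read higher in Cat-Tg by 1.58 (SE 0.672, adjusted p = 0.156), and Egr1, which read lower by -0.85 (SE 0.327, adjusted p = 0.113). Both separated by range, as did Dusp1, against 27.6% of genes. DESeq2 called 1 of them (Atf3, 1.71, adjusted p = 0.0349) and limma-voom both (Atf3 1.68, adjusted p = 0.00966, and Egr1 -1.03, adjusted p = 0.0361), and without Cat-Tg CD4+ post-tx replicate 1 the difference of Egr1 was -1.21 (adjusted p = 0.0275). In this comparison 11 of 15 myeloid and 7 of 7 erythroid markers were called higher in Cat-Tg. Of 17 B cell markers 7 were called higher and 2 lower, with sums of 5170 to 6100 CPM in Cat-Tg against 1390 to 1630 in WT. The part of these markers in the members' differences was not tested.

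**Figure D3:**
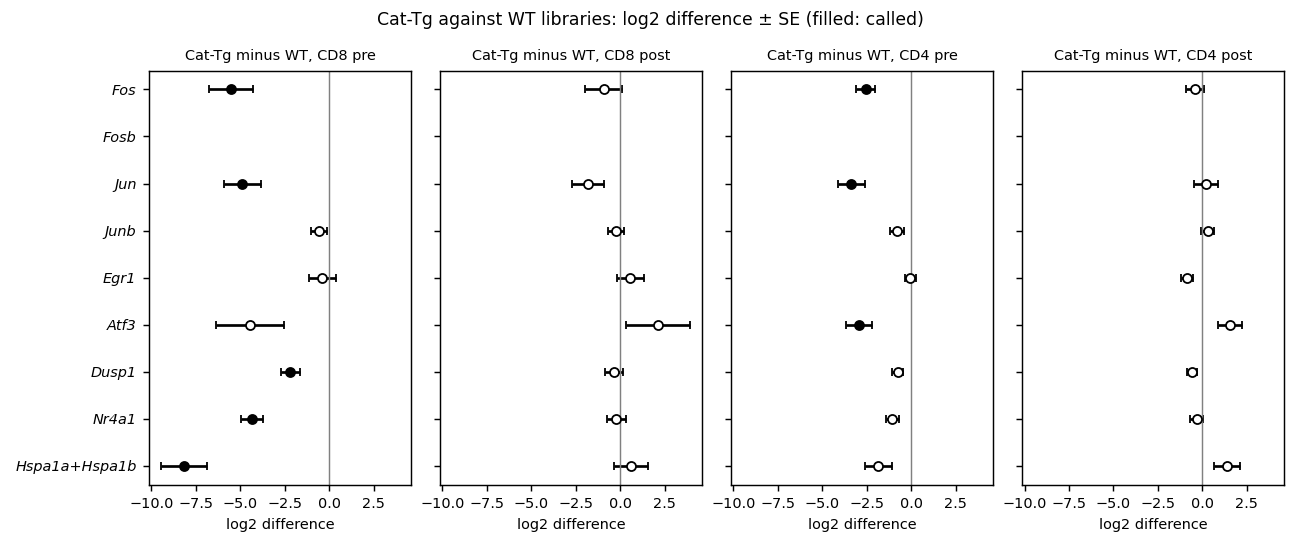
Log2 difference, Cat-Tg minus WT, of each member in 4 comparisons; points are estimates of the edgeR fit, bars the SE, and filled points passed both thresholds. In CD8 pre 5 members lie left of 0 and are filled, in CD4 pre 3, and in the post-tx comparisons none is filled; Fosb was not tested.

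Post-tx and pre-tx libraries were compared next. In Cat-Tg CD8+ cells 2 of 8 members rose, Nr4a1 and the Hspa1 pair, against 8.74% of genes called higher, 5.25% lower and 14% in all. Nr4a1 rose by 2.59 on the log2 scale (SE 0.573, adjusted p = 0.00855), was called in each of 6 fits with 1 library left out, and in the fit without the libraries labelled WT pre-tx (2.56, adjusted p = 0.00948). The Hspa1 pair rose by 3.66 (SE 1.10, adjusted p = 0.0381); it was not called in 5 of those 6 fits or without the libraries labelled WT pre-tx (3.62, adjusted p = 0.0989). Fos, Jun and Dusp1 differed by -0.04, 0.41 and 0.43, with adjusted p of 0.98, 0.758 and 0.565. Ranges did not overlap for 3 of 8, the third being Junb, against 48.2% of genes. In the same comparison 13 of 17 B cell markers were called lower post-tx, 5 of 15 myeloid markers higher and 4 lower. The sum of 6 dendritic cell markers went from 6.05 to 16.3 CPM pre-tx to 272 to 335 post-tx. The list did not rise as a whole: 1 of the 6 was called higher and 1 lower, and the median log2 difference was -1.13. Clec9a was at 0 throughout post-tx. The part of these marker lists in the members' differences was not tested.

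In Cat-Tg CD4+ cells Fos, Jun and Atf3 rose, 3 of 8, against 13.2% of genes called higher, 27.7% lower and 40.9% in all. Ranges did not overlap for 5 of 8 (Fos, Jun, Junb, Atf3 and Nr4a1), against 56.6% of genes. Atf3 rose most, by 5.05 (SE 0.80, adjusted p = 0.00022), and was called in all 6 fits with 1 library left out. Its Cat-Tg pre-tx libraries had 3, 3 and 28 counts, against a floor of 3. Fos rose by 1.57 (SE 0.541, adjusted p = 0.0272) and Jun by 1.86 (SE 0.706, adjusted p = 0.0428), and without Cat-Tg CD4+ post-tx replicate 1 the call was lost for both (adjusted p = 0.0642 and 0.08), which left 1. Fos was also lost without Cat-Tg CD4+ pre-tx replicate 2 or 3, and Jun without post-tx replicate 2 or 3 (adjusted p of 0.0628 to 0.0912). Junb (0.89, adjusted p = 0.0762), Nr4a1 (0.92, adjusted p = 0.0545) and the Hspa1 pair (1.71, adjusted p = 0.0714) did not pass. In the fit without the libraries labelled WT pre-tx these 3 passed as well, with differences of 1.24, 1.25 and 2.07, so that 6 of 8 were called; the same 6 were called with DESeq2 size factors, which moved the median of all genes by 0.228 and the share of calls that were higher from 32.2% to 42.2%. Egr1 (-0.33) and Dusp1 (-0.03) did not pass in any of these. The myeloid sum moved with the members, from 1890 to 2830 CPM pre-tx to 6550 to 8600 post-tx, and the erythroid sum from 1300 to 2120 up to 4010 to 26300; 10 of 15 myeloid and 6 of 7 erythroid markers were called higher post-tx, and their part was not tested.

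The WT comparisons rest on the libraries labelled WT pre-tx, whose B cell markers sum to 27100 to 45900 CPM against 639 to 1630 in WT post-tx. In CD8+, Fos fell by 4.61 (SE 1.18, adjusted p = 0.0102) and the Hspa1 pair fell by 5.12 (SE 1.09, adjusted p = 0.00316), 2 of 8 against 10.4% of genes called lower, 13.2% higher and 23.6% in all. Ranges did not overlap for 4 of 8 (Fos, Jun, Dusp1 and the Hspa1 pair), against 32.9% of genes. Jun (-2.64, adjusted p = 0.05 after rounding), Nr4a1 (-1.56, adjusted p = 0.0517), Dusp1 (-1.41, adjusted p = 0.0656), Atf3 (-4.89, adjusted p = 0.087) and Egr1 (-1.73, adjusted p = 0.127) did not pass, yet 6 members were called lower without WT CD8+ post-tx replicate 2, whose TMM factor of 0.463 was the lowest of the series, and 6 by DESeq2. In CD4+, edgeR called 0 of 8 (22.1% of all genes, 13.1% higher and 9.05% lower), with 1 unadjusted p under 0.05, that of Jun (-1.71, SE 0.696, adjusted p = 0.0857); DESeq2 called 0 and limma-voom 1. For 2 of 8, Jun and the Hspa1 pair, ranges did not overlap, against 43.6% of genes.

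**Figure D4:**
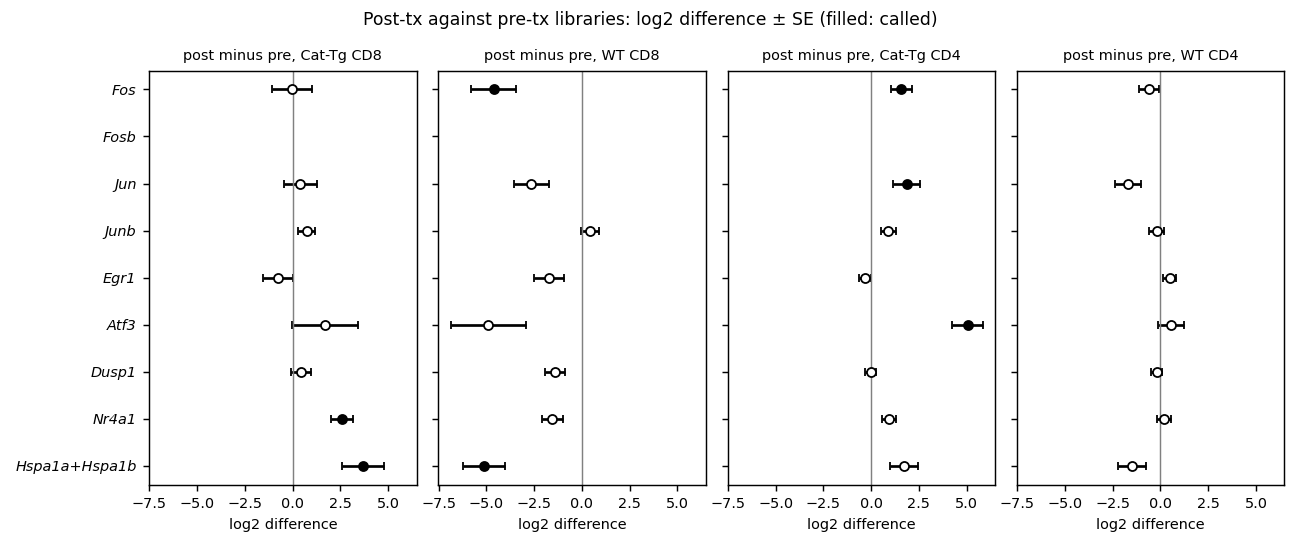
Log2 difference, post-tx minus pre-tx, of each member in 4 comparisons; points are estimates of the edgeR fit, bars the SE, and filled points passed both thresholds. Filled points lie right of 0 in both Cat-Tg comparisons (Nr4a1 and the Hspa1 pair in CD8, Fos, Jun and Atf3 in CD4) and left of 0 in WT CD8 (Fos and the Hspa1 pair).

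The difference of the post-tx change between Cat-Tg and WT was itself tested as an interaction. In CD8+ it was 4.15 for Nr4a1 (SE 0.792, adjusted p = 0.00415) and 8.78 for the Hspa1 pair (SE 1.54, adjusted p = 0.00236), 2 of 8 members against 5.93% of genes in that direction, 4.77% in the other and 10.7% in all. Without WT CD8+ post-tx replicate 2, Fos (4.14, adjusted p = 0.0447), Jun (4.14, adjusted p = 0.0385) and Dusp1 (2.35, adjusted p = 0.0359) were called too, 5 in all. In CD4+ it was 3.57 for Jun (SE 0.991, adjusted p = 0.0203), 4.50 for Atf3 (SE 1.00, adjusted p = 0.00566) and 3.21 for the Hspa1 pair (SE 1.04, adjusted p = 0.0385), 3 of 8 against 7.2% of genes, 14.1% in the other direction and 21.3% in all. With DESeq2 size factors the median of all genes in the CD4+ interaction moved by 0.339, the share of calls in this direction from 33.8% to 52.4%, and 4 members were called. The CD4+ call of the Hspa1 pair was lost in 6 of 12 fits that left out 1 library, without replicate 2 or 3 of Cat-Tg pre-tx, replicate 1 of Cat-Tg post-tx (1.72, adjusted p = 0.161), replicate 2 of WT pre-tx or replicate 2 or 3 of WT post-tx, with an adjusted p from 0.0593 up, and in limma-voom (2.34, adjusted p = 0.0987). All of these include the libraries labelled WT pre-tx.

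CD8+ and CD4+ libraries were compared in a fit of all 24. No member was called higher in CD8+ in any of the 4 comparisons. In Cat-Tg pre-tx, Nr4a1 was lower in CD8+ (-2.62, SE 0.513, adjusted p = 0.00471) and so was the Hspa1 pair (-4.17, SE 1.06, adjusted p = 0.0438), 2 of 9 members against 1.17% of 19091 genes (0.309% higher, 1.48% in all). Ranges did not overlap for 3 of 9 (Egr1, Nr4a1 and the Hspa1 pair), against 17% of genes. There, 7 of 15 myeloid markers were called lower in CD8+ and 0 higher, and their part was not tested. Nr4a1 stayed called in all 6 fits that left out 1 library and the Hspa1 pair in none of them. In limma-voom neither passed (adjusted p = 0.0544 and 0.155). In Cat-Tg post-tx Fos was lower in CD8+ by a log2 difference of -3.55 (SE 0.935, adjusted p = 0.0221), 1 of 9 against 4.04% of genes (1.88% higher, 5.92% in all), and 7 of 9 members did not overlap (Fos, Fosb, Jun, Egr1, Atf3, Dusp1 and Nr4a1), against 26.5% of genes. The Fos call was lost without any one of the CD8+ libraries (adjusted p of 0.0562 to 0.118) and without the libraries labelled WT pre-tx (adjusted p = 0.0539), while a fit of the 6 libraries compared called 4 members. Myeloid sums in this comparison were 699 to 1440 CPM in CD8+ against 6550 to 8600 in CD4+.

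In WT post-tx Egr1 (-2.27, SE 0.653, adjusted p = 0.0224), Atf3 (-4.79, SE 1.53, adjusted p = 0.0395) and Fos (-2.81, SE 0.904, adjusted p = 0.0409) were lower in CD8+, 3 of 9 against 5.5% of genes (7.05% higher, 12.6% in all). The CD8+ libraries had 8, 1 and 0 counts of Atf3 and 27, 1 and 82 of Fos, against a floor of 3. Ranges did not overlap for 5 of 9 (Fos, Fosb, Egr1, Atf3 and Nr4a1), against 25.4% of genes. In the same comparison 12 of 15 myeloid markers were called lower in CD8+ and 1 higher, and their part was not tested. In each of 4 fits that left out 1 library only 1 of them was called, these being without replicate 2 or 3 of either cell type. The methods state that both cell types were sorted from each mouse; the numbers in the labels are not tied to mice, and with the replicate number as a block 1 member was called here and 1 in Cat-Tg pre-tx. Between the WT-labelled pre-tx libraries of CD8+ and CD4+ cells, edgeR called 0 of 9 members and 4 of 19091 genes (0.021%, of which 0.00524% higher and 0.0157% lower). There, 3 of 9 ranges did not overlap (Fos, Jun and the Hspa1 pair), against 18.7% of genes. In that comparison 2 members had an unadjusted p under 0.05, Fosb (2.64) and the Hspa1 pair (2.08), and DESeq2 and limma-voom called 0. Fosb read 3.71, 3.66 and 0.269 CPM in the CD8 set and 0.144, 0.146 and 0.919 in the CD4 set, which overlap. It passed the filter on low counts partly through the high libraries of the CD8 set, so its p is not independent of that filter. The change of the CD8 to CD4 difference with transplantation, in Cat-Tg, was called for 0 of 9 members by edgeR, DESeq2 and limma-voom (0.76% of genes, 0.215% higher and 0.545% lower), with an unadjusted p under 0.05 for Nr4a1 (1.48, SE 0.685, adjusted p = 0.417).

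**Figure D5:**
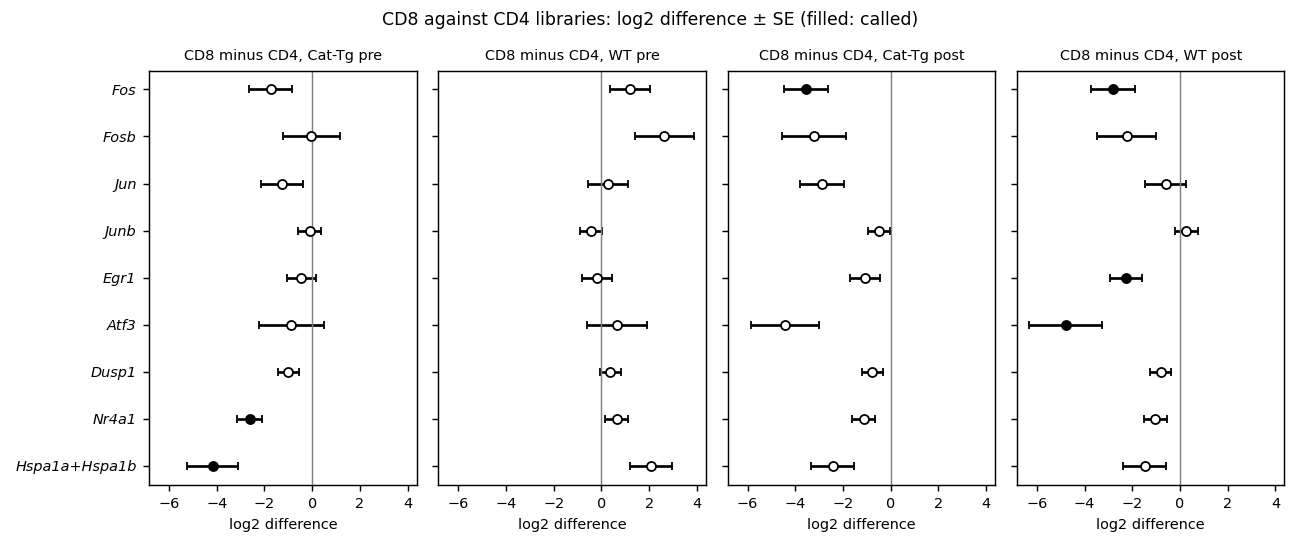
Log2 difference, CD8 minus CD4, of each member in 4 comparisons; points are estimates of the fit of 24 libraries, bars the SE, and filled points passed both thresholds. The filled points all lie left of 0: Nr4a1 and the Hspa1 pair in Cat-Tg pre, Fos in Cat-Tg post, and Fos, Egr1 and Atf3 in WT post.

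The genes around the members were taken from lists of their pathways. Their counts of calls are to be read beside the shares of all genes called, given above for each comparison. In these lists too, each WT post-tx minus pre-tx comparison and each pre-tx genotype comparison rests on the libraries labelled WT pre-tx. Those libraries held more B cell and less T cell marker RNA, and the part of this in the listed genes was not tested. Of the other AP-1 and related leucine zipper genes, 3 of 10 tested were called higher post-tx and 0 lower in Cat-Tg CD8+ (Jdp2 4.07, Mafg 3.63), 5 of 11 and 0 in Cat-Tg CD4+ (Batf2 5.03, Batf3 3.17) and 3 of 11 and 0 in WT CD4+ (Batf 3.20, Maf 2.64). BATF proteins pair with Jun proteins in activated lymphocytes. In WT CD8+ Batf rose (4.08) and Atf2 fell by 1.84, 1 in each direction. Between genotypes, Batf3 was higher in Cat-Tg CD4+ post-tx (2.88, SE 0.595, adjusted p = 0.00639), the 1 call among 11, while in CD4+ pre-tx 3 were higher, led by Atf2 (2.02) and Batf (2.01), and 2 lower, Jund (-2.15) and Mafk (-1.17).

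Of 26 other immediate early genes, 1 was called higher and 4 lower in Cat-Tg CD8+ pre-tx. Ier3 was higher (2.92), and Zfp36l1 (-2.22) and Zfp36 (-1.85), which encode proteins that destabilise AU-rich mRNAs, were lower. In CD4+ pre-tx Cd69, an early surface marker of activation, was higher (2.90, SE 0.387, adjusted p = 0.000132) and 3 were lower, with Ier5 (-1.70) and Zfp36 (-1.39) in the lead; post-tx CD8+ had no calls among 26 by edgeR, with 1 unadjusted p under 0.05, and in CD4+ Nr4a2 (-2.92) and Cd69 (-1.33) were lower in Cat-Tg. With transplantation 2 rose and 0 fell in Cat-Tg CD8+ (Nfil3 4.21, Gadd45b 1.45), 5 rose and 2 fell in Cat-Tg CD4+ (Nfil3 1.95 and Egr2 1.89 against Klf4 -1.99 and Cd69 -1.30), 2 rose and 7 fell in WT CD8+, and 7 rose and 5 fell in WT CD4+, where Cd69 rose by 2.93. In the CD8 to CD4 comparison Egr2 and Egr3, relatives of Egr1, were lower in CD8+ post-tx, at -3.19 and -3.26 in Cat-Tg and -3.23 and -2.76 in WT.

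Among 11 tested phosphatases and other feedback genes of the MAP kinase path, Dusp5 rose post-tx in all 4 comparisons, by 3.89 in Cat-Tg CD8+, 2.37 in WT CD8+, 1.96 in Cat-Tg CD4+ and 2.13 in WT CD4+; it encodes a nuclear phosphatase of ERK. Dusp4 rose in both Cat-Tg comparisons (4.64 and 1.89). Dusp1 itself was not called by edgeR in any of these 4, while in WT CD8+ it was called lower by DESeq2 (-1.34, adjusted p = 0.0444) and limma-voom (-1.46, adjusted p = 0.0405). Dusp6, the cytoplasmic ERK phosphatase, was lower in Cat-Tg pre-tx in CD8+ (-1.84) and CD4+ (-1.23), and it is also among the genes closest to the members in pattern.

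Among the other heat shock genes, in CD8+ pre-tx 1 of 19 was called lower in Cat-Tg (Hspa2, -4.52) and 0 higher, and in CD4+ pre-tx 4 of 17 were higher, led by Dnaja1 (1.77) and Hsp90aa1 (1.49), where the Hspa1 pair read -1.85. In WT CD4+ 7 of 17 rose post-tx and 0 fell, led by Hsp90aa1 (2.26) and Hsph1 (2.14), both chaperones; in Cat-Tg CD4+ 1 rose (Hsph1, 1.56) and 1 fell (Dnajb4, -1.56), and in Cat-Tg CD8+ 1 rose (Hspa2, 4.50). Of 13 genes of the integrated and endoplasmic reticulum stress responses, 2 rose in Cat-Tg CD8+ (Sesn2 3.33, Xbp1 1.42), 5 rose and 1 fell in Cat-Tg CD4+ (Ddit4 2.22 and Sesn2 2.16 against Ddit3 -1.26), 2 rose and 1 fell in WT CD8+, and 4 rose in WT CD4+.

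Genes of T cell activation were called between post-tx and pre-tx in all 4 comparisons. In Cat-Tg CD8+ 10 of 11 rose and 0 fell, with Il2ra, the high-affinity interleukin-2 receptor chain, at 5.76 (SE 0.726, adjusted p = 0.000161) and Ifng, interferon gamma, at 5.22 (SE 0.892, adjusted p = 0.00168). In WT CD8+ 5 rose, led by Tnfrsf9 (6.22), and 1 fell. In Cat-Tg CD4+ 7 of 12 rose, led by Tbx21 (3.13) and Ifng (2.98), and 1 fell. In WT CD4+ 10 of 12 rose, led by Ifng (7.13) and Il2 (6.53), and 1 fell. Against the libraries labelled WT pre-tx, 10 of 12 T cell markers in WT CD8+ and 12 of 12 in WT CD4+ were also called higher post-tx. In both, 17 of 17 B cell markers were called lower, and the part of these shifts was not tested. Between genotypes post-tx, Nfatc1 alone was called in CD8+ (1.69 higher in Cat-Tg), and 4 of 12 were lower in Cat-Tg CD4+, with Ifng at -1.73 and Tnfrsf9 at -1.66, where edgeR called none of the members, DESeq2 Atf3 and limma-voom Atf3 and Egr1. Between genotypes pre-tx, 6 of 11 were lower and 0 higher in Cat-Tg CD8+, and 6 of 12 higher and 2 lower in Cat-Tg CD4+. Of 15 upstream kinases and factors tested, 0 were called between genotypes in CD8+ pre-tx, CD8+ post-tx or CD4+ post-tx by edgeR, with 3, 2 and 1 unadjusted p under 0.05, and in CD4+ pre-tx Crem (3.00) and Creb1 (1.5) were higher and Map2k1 (-1.34) and Map2k2 (-1.10) lower in Cat-Tg. In that CD4+ pre-tx comparison 12.3% of all genes were called higher and 5.9% lower.

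Within genes, the share of each transcript also differed between groups. The transcript Nr4a1-202 had 0% of the Nr4a1 counts in each Cat-Tg CD8+ pre-tx library, which had at least 88 counts of the gene, and 14.5% ± 3.98 (SD, n = 3) in Cat-Tg CD8+ post-tx. In WT CD8+ post-tx the transcript had 6.18% ± 10.7, from 0% to 18.5%, with at least 186 counts of the gene. In CD4+ post-tx it had 37.2% ± 19.1 in Cat-Tg and 6.24% ± 3.08 in WT. Retained-intron transcripts made up 31.6% ± 14.6 of Dusp1 in the WT-labelled CD8+ pre-tx libraries and 8.06% to 15.3% on average in the other 7 groups. The range of the former, 19.7% to 47.9%, overlapped those of Cat-Tg CD8+ pre-tx (0% to 33.7%) and Cat-Tg CD4+ post-tx (8.27% to 24.6%). These shares are assignments by the pseudoaligner among overlapping transcripts and were not tested.

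The genes outside the members whose log2 CPM followed the mean of Fos, Fosb, Jun, Junb, Egr1, Atf3, Dusp1 and Nr4a1 most closely over the 24 libraries, among 8799 genes with a mean of at least 10 CPM, were Hdc (Pearson's r = 0.91), Dnase1l3 (0.904), Dusp6 (0.888), Csf2rb (0.886) and Csf2ra (0.871). The members themselves ran from 0.888 (Fos) and 0.882 (Jun) down to 0.468 (Junb) against the same mean, and the Hspa1 pair, which is not part of the mean, stood at 0.791. Over the 12 Cat-Tg libraries, which leaves out those labelled WT pre-tx, the closest included Gfra2 (0.961), Jup (0.935), Ctnnd1 (0.933) and Atp6v0a1 (0.929). The points of these correlations share groups, library series and cell content, so that they describe these libraries only.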

How the data were processed

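The RNA of sorted cells was made into cDNA with SMART-Seq HT and into libraries with Nextera XT. Per the labels, the authors ran kallisto 0.46.2; its deposited tables give estimated counts and TPM for 117497 transcripts, pooled over no samples. The index release is not given in the sources used here; the labels name mm9. Of the transcripts, 116428 matched GENCODE M21 by identifier (99.64% to 99.76% of counts), 1069 did not.

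Estimated counts were summed to 35868 genes and rounded, and fitted with edgeR 4.0.16 (R 4.3.3; TMM, robust quasi-likelihood F test) on genes over 1 CPM in at least 3 libraries: the 12 CD8+ libraries (15974 genes), the 12 CD4+ (17242) and all 24 for CD8 against CD4 (19091). SE is the absolute log2 difference divided by the square root of F. Calls follow the methods' 2-fold and 5% thresholds. The procedure was run on simulated counts of the CD8+ fit, with the same spread for every gene. These data differ from that setting, so the run is no check of calls on noisy groups or counts near the floor. Alternatives were DESeq2 1.42.0, limma-voom (limma 3.58.1, the study's tool), DESeq2 size factors, no filter, length-scaled TPM, other thresholds, only the libraries compared, a replicate block, Hspa1a and Hspa1b apart, no WT pre-tx libraries, and each library left out.

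Members and lists were chosen with earlier results of these data known. From each list, at most the 2 called genes per direction with the largest log2 difference are named; pattern neighbours are the 5 with the highest r, of which 1 is not reported here. Ctnnb1, Cd4 and Cd8a served as label checks. Replicates are separate donor mice pre-tx and separate recipients post-tx by the methods, which do not say whether post-tx donors were pooled. No replicate pair agreed within sampling noise (chi-square per gene of 46.8 or more). The SEs include the spread between the libraries of the fit, and the SDs are spreads of 3 libraries. Floors cover counting error only.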

Additional observations from a re-analysis of the deposited data

Results flagged for a closer look

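Values were examined where the change with transplantation differed between Cat-Tg and WT by the test of that difference (edgeR, adjusted p of at most 0.05). In CD8+ these were Nr4a1, with a log2 difference of 4.15, and the sum of Hspa1a and Hspa1b, with 8.78: both were called higher post-tx in Cat-Tg, while in WT the Hspa1 pair was called lower and Nr4a1 read -1.56. In CD4+ they were Jun (3.57), Atf3 (4.50) and the Hspa1 pair (3.21, a call lost in 6 of 12 fits with 1 library left out and in limma-voom): Jun and Atf3 were called higher post-tx in Cat-Tg and neither was called in WT. All rest on the libraries labelled WT pre-tx, in which B cell markers summed to 27100 to 45900 CPM and Cd8a made up 50% to 65.4% of Cd4 and Cd8a; their part in these differences was not tested. Of the calls within Cat-Tg, that of the Hspa1 pair in CD8+ was lost in most fits that left out 1 library (adjusted p up to 0.104). The Jun call in Cat-Tg CD4+ was lost without any one of the post-tx libraries (adjusted p of 0.0671 to 0.0912). Groups of 3 libraries were not searched for single outlying libraries.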

How the results depend on the processing

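Depth limits Fosb, and Atf3, Fos and the Hspa1 pair in CD8+ cells, where counts lie near the floor. In Cat-Tg CD4+ pre-tx, Atf3 had 3, 3 and 28 counts, and Jun had 5 counts in replicate 2. The CD4+ differences and interactions of Atf3 and Jun that use this group therefore also rest on counts near the floor. Of 1912 alternative values of single members, 1696 kept their direction and their side of the threshold, 64 lost a call, 92 gained one and 60 changed sign, none of these with an adjusted p under 0.118. Where a call or sign changed, the cause was not tested. The replicate numbers do not pair the samples by the labels, and in no comparison were all 3 correlations of same-numbered samples over 0.1 (CD8+ pre-tx genotypes 0.142, 0.202 and 0.063); with the number as a block, the called members were 1 in Cat-Tg CD8+ post-tx minus pre-tx (2 without it), 5 in WT CD8+ post-tx minus pre-tx (2), 1 in CD8 minus CD4 Cat-Tg pre-tx (2) and 1 in WT post-tx (3), and the block turned the sign of Egr1 in CD4+ pre-tx genotypes (0.001) and of Fos in Cat-Tg CD8+ post-tx minus pre-tx (0.169).

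Numbers of called members that moved by more than 1.5 times were these; smaller moves, such as 2 to 3 in WT CD8+ post-tx minus pre-tx with only the libraries compared and 3 to 4 in the CD4+ interaction with DESeq2, occurred too. Cat-Tg minus WT in CD4+ pre-tx went from 3 to 5 with DESeq2 and 6 with only the libraries compared, and in CD4+ post-tx from 0 to 1 with DESeq2, 2 with limma-voom and 1 with only the libraries compared. Post-tx minus pre-tx in Cat-Tg CD8+ went from 2 to 1 with limma-voom, without the WT pre-tx libraries and with only the libraries compared. In WT CD8+ it went from 2 to 6 with DESeq2 and to 5 with limma-voom, without a filter and with length-scaled TPM. In Cat-Tg CD4+ it went from 3 to 1 with a log2 threshold of 2, to 6 with DESeq2, with its size factors and without the WT pre-tx libraries, and to 5 without a filter; in WT CD4+ from 0 to 1 with limma-voom and with only the libraries compared. The CD8+ interaction went from 2 to 4 with DESeq2, limma-voom and no filter. CD8 minus CD4 in Cat-Tg pre-tx went from 2 to 0 with limma-voom and to 1 with length-scaled TPM, Hspa1a and Hspa1b apart, no WT pre-tx libraries and only the libraries compared; in Cat-Tg post-tx from 1 to 4 with DESeq2, 3 with limma-voom, 0 without the WT pre-tx libraries and 4 with only the libraries compared; and in WT post-tx from 3 to 1 with only the libraries compared.

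With 1 library left out, called members ranged from 4 to 5 in CD8+ and 3 to 5 in CD4+ pre-tx genotypes, 0 to 0 and 0 to 1 post-tx; from 1 to 2 in Cat-Tg CD8+, 2 to 6 in WT CD8+, 1 to 4 in Cat-Tg CD4+ and 0 to 0 in WT CD4+ post-tx minus pre-tx; from 2 to 5 and 2 to 4 in the CD8+ and CD4+ interactions; and from 1 to 2, 0 to 1, 0 to 0 and 1 to 3 in CD8 minus CD4 (Cat-Tg pre-tx and post-tx, WT pre-tx and post-tx).

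Signs changed as follows (log2 differences). With limma-voom they changed for Junb between genotypes in CD8+ post-tx (0.038) and CD4+ post-tx (-0.142), Egr1 in CD4+ pre-tx genotypes (0.029), Fos in Cat-Tg CD8+ post-tx minus pre-tx (0.805), Atf3 in CD8 minus CD4 WT pre-tx (-0.672), Junb in WT post-tx (-0.022) and Junb in the change of the CD8 to CD4 difference (0.056). Fos in Cat-Tg CD8+ post-tx minus pre-tx was 0.086 without a filter and 0.408 with length-scaled TPM. Dusp1 in Cat-Tg CD4+ post-tx minus pre-tx was 0.215 with DESeq2, 0.216 with its size factors, 0.290 without a filter, 0.001 with length-scaled TPM, 0.304 without the WT pre-tx libraries and 0.131 with only the libraries compared, and Egr1 there 0.008 without the WT pre-tx libraries. Fosb in CD8 minus CD4 Cat-Tg pre-tx was 0.004 with DESeq2, 0.002 with its size factors and 0.242 with length-scaled TPM, and Junb in WT post-tx -0.026 with length-scaled TPM and -0.130 without the WT pre-tx libraries.

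With 1 library left out, sign changes gave these ranges. Between genotypes in CD8+ post-tx, Fos ran from -1.40 to 0.08, Junb from -0.508 to 0.421, Dusp1 from -0.635 to 0.092 and Nr4a1 from -0.402 to 0.276; in CD4+ pre-tx Egr1 from -0.517 to 0.186; in CD4+ post-tx Junb from -0.603 to 0.614 and the Hspa1 pair from -0.131 to 1.836. Post-tx minus pre-tx, Fos ran from -0.638 to 2.318 and Jun from -0.214 to 1.098 in Cat-Tg CD8+, Junb from -0.364 to 0.560 in WT CD8+, Junb from -0.007 to 1.210 and Dusp1 from -0.243 to 0.376 in Cat-Tg CD4+ and Nr4a1 from -0.247 to 0.393 in WT CD4+. In the CD4+ interaction Dusp1 ran from -0.030 to 0.804. In CD8 minus CD4, Fosb ran from -0.733 to 0.467 and Atf3 from -6.850 to 1.229 in Cat-Tg pre-tx, Junb from -0.895 to 0.446 in Cat-Tg post-tx, Jun from -0.025 to 0.317, Egr1 from -0.511 to 0.178, Atf3 from -0.569 to 1.096 and Nr4a1 from -0.061 to 0.868 in WT pre-tx, and Junb from -0.355 to 0.675 in WT post-tx. In the change of the CD8 to CD4 difference in Cat-Tg, Fos ran from -2.462 to 0.515, Junb from -0.798 to 0.554, Atf3 from -5.674 to 2.405 and Dusp1 from -0.161 to 0.736.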
